A study of Mus musculus with 20 samples.

Results

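The genes described here are the Wnt ligands, their Frizzled and Lrp receptors and the secreted antagonists that bind either of them, as measured on brain RNA from 20 mouse arrays. The members are all genes whose symbol begins Wnt or Fzd followed by a digit, with Sfrp1 to Sfrp5, Dkk1 to Dkk4, Lrp5, Lrp6, Wif1 and Frzb, and 41 of the 20972 gene symbols on the array met that rule: 19 Wnt ligands, 10 Frizzled receptors, 2 Lrp co-receptors, 6 Frizzled-related proteins with Wif1, and 4 Dickkopf genes. The rule itself goes by gene symbols and uses no measured value, although it was set with earlier results of these data known. The study asked how repeated methamphetamine (Meth), the HIV-1 protein Tat, and both together change gene expression in the brain. All mice were C57BL/6J males, given as 6 to 7 weeks old, and all carried a tetracycline-responsive regulator protein under the GFAP promoter, which is active in astrocytes. Tat+ mice carried in addition a Tat transgene driven by the TRE promoter, and Tat- mice did not. Every mouse, controls included, received 100 mg/kg doxycycline for 7 days, together with saline (Tat-/Sal and Tat+/Sal) or 2 mg/kg Meth (Tat-/Meth and Tat+/Meth). Each of the 4 groups has 5 arrays. The labels give the left hemisphere of the brain as the tissue, whereas the methods of the study describe older mice, the caudate putamen, and a last Meth dose for every animal after a period without drug. The labels do not say that each array is a separate mouse, but the methods of the study give 20 mice, 5 per group, with 5 replicates per condition. The p-values measure the spread between these arrays.

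Wnt proteins are lipid-modified secreted ligands that bind the extracellular domain of Frizzled receptors. When Lrp5 or Lrp6 is bound as well, the complex that degrades beta-catenin is held back, and beta-catenin enters the nucleus and acts there with TCF/LEF factors; other Wnt ligands act through Frizzled without beta-catenin, on cell polarity and calcium. Secreted Frizzled-related proteins and Wif1 bind the ligands, and Dickkopf proteins bind Lrp5 and Lrp6. In the adult brain the pathway is known for its part in synapse upkeep, in the birth of neurons in the hippocampus and in the blood-brain barrier.

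Levels below are processed signals on the log2 scale, with arrays brought to a common 75th percentile, and are compared only between arrays for 1 probe, since probes differ in brightness. The brightest probe stands for its gene. All 10 markers of striatal projection neurons were well above background on at least 18 arrays, and their mean level spanned 15.44 to 15.76 over the 4 groups, while 4 of 7 markers of cortical excitatory neurons were that bright. Per array, 55.3% to 70.9% of the probes were well above background. The 5 Tat-/Meth arrays fill slide 1 and no other group lies on that slide. Slide 2 holds the 5 Tat-/Sal arrays with 3 Tat+/Meth arrays, and slide 3 the other 2 Tat+/Meth arrays with the 5 Tat+/Sal arrays. Bright control spots that need no mouse RNA read 14.68 to 15.06 on slide 1, against 16.79 to 17.44 on slides 2 and 3, so in each comparison with Tat-/Meth the treatment and the slide cannot be told apart. The 7 astrocyte markers had a mean level of 12.96 to 13.29 and a summed level of 16.61 to 16.87 on the Tat-/Meth arrays, against 12.64 to 12.82 and 16.33 to 16.60 on the other 15, and 4 of the 7 were called higher than in Tat-/Sal. Of the 5 ependymal markers 3 were called higher as well, with summed levels of 14.26 to 14.63 in Tat-/Meth and 13.48 to 14.47 in Tat-/Sal. Beside these marker counts, 35% of all genes were called higher and 15.3% lower with scaling. Without scaling these shares were 0.827% and 47.2%. Of the 5 thalamus markers, which include the pathway genes Tcf7l2 and Lef1, 2 were called lower and 1 higher. The mean level of the 5 was 8.28 to 8.47 on the Tat-/Meth arrays and 8.53 to 9.18 on the other 15. It includes Tcf7l2, whose probes disagree as described below. Elsewhere 2 of the 10 striatal and 1 of 5 microglia markers were called lower. Called higher were 2 of 5 oligodendrocyte, 1 of 8 endothelium and pericyte and 1 of 3 red blood cell markers. The part of any of these cells in the results below was not tested. With whole tissue RNA, more cells of a type and more RNA per cell cannot be told apart.

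Most of the family was detected in this tissue. Of the 41 members 33 (80.5%) had a group mean of at least 6 log2 units and were tested, where 72.0% of all 20970 genes were. Of these 33 members 27 were well above background on all 20 arrays. The 8 members too dim to test were 5 ligands and 3 of the 4 Dickkopf genes. Dkk1, Wnt2b and Wnt3a were not well above background on any array, Dkk4 was on 1 of 20 and Wnt8a on 1. Dkk2 was well above background on 5 Tat-/Sal, 4 Tat-/Meth, 3 Tat+/Sal and 3 Tat+/Meth arrays, and Wnt6 on 4, 4, 3 and 2. Wnt9b differed more between groups: it was well above background on 3 arrays of Tat-/Sal, 2 of Tat+/Sal and 4 of Tat+/Meth but on 0 of 5 of Tat-/Meth, where its signal averaged 4.09 ± 0.72 (SD) against 5.46 ± 0.52 in Tat-/Sal and 5.97 ± 0.10 in Tat+/Meth (n = 5 each). The Wnt9b means were also set against the dimmest signal that counted as above background on the Tat-/Meth arrays. They exceeded it 1.14-fold in Tat-/Sal and 1.62-fold in Tat+/Meth. Both means include arrays on which Wnt9b was not well above background, so these folds are not lower limits.

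**Figure D1:**
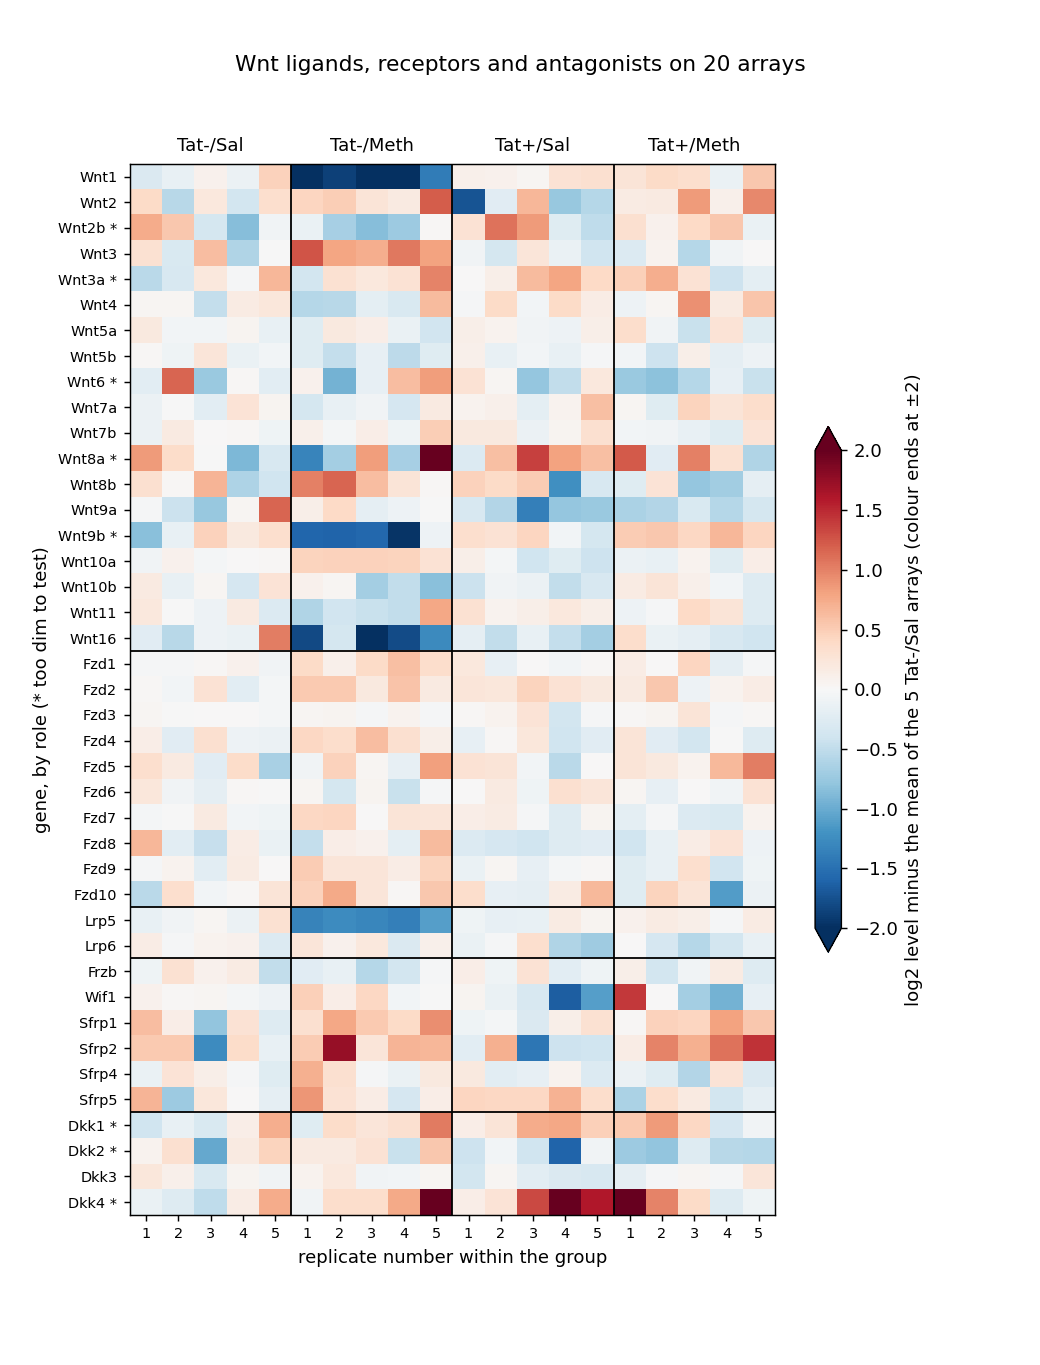
Each row is 1 of the 41 genes and each column 1 of the 20 arrays; colour gives the log2 level minus the mean of the 5 Tat-/Sal arrays, and an asterisk marks the 8 genes too dim to test. Wnt1, Wnt16 and Lrp5 are low and Wnt3 is high on the Tat-/Meth arrays, while the Tat+ columns of these 4 genes lie near the Tat-/Sal level.

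Meth without Tat (Tat-/Meth vs Tat-/Sal) asks what the repeated Meth injections do in mice without Tat. By the methods of the study, the saline groups received the last Meth dose as well. In this comparison the ligands Wnt1 and Wnt16 and the co-receptor Lrp5 were lower, by 4.01-, 2.73- and 2.42-fold, and Wnt3 was higher by 1.90-fold. At an adjusted p under 0.05, 8 of the 33 tested members were higher, or 24.2%, where 35% of all 15102 tested genes were, and 4 were lower, or 12.1%, where 15.3% of all genes were. Past 2-fold as well there were 3 members, all lower, and 6.85% of all genes were past both limits. The median change of the members was 0.12 and that of all genes 0.14, so the family as a whole lay close to the background of this comparison. Without scaling of the arrays the median of all genes moved to -0.29 and the members split into 1 higher and 14 lower, where 0.827% and 47.2% of all genes were.

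Wnt1, the first ligand of the family to be found and a patterning signal of the midbrain, read 11.36, 11.48, 11.72, 11.52 and 12.10 on the Tat-/Sal arrays and 9.30, 9.77, 9.44, 9.42 and 10.24 on the Tat-/Meth arrays. In Tat+/Sal it read 11.74, 11.72, 11.67, 11.93 and 11.96, and in Tat+/Meth 11.90, 12.03, 11.98, 11.50 and 12.18. The 5 Tat-/Meth arrays lay below each of the other 15. Wnt1 fell by 2.00 on the log2 scale in Tat-/Meth against Tat-/Sal (SE 0.17, adjusted p = 2.08e-08, limma). This value came from 1 of the 2 Wnt1 probes; the other probe was not well above background on any of the 20 arrays, so the Wnt1 values rest on 1 probe, and with the mean over both probes the change was -1.10.

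Lrp5, the co-receptor with known roles in bone mass and in the vessels of the retina, read 11.69, 11.76, 11.88, 11.71 and 12.13 in Tat-/Sal and 10.49, 10.57, 10.53, 10.46 and 10.73 in Tat-/Meth. It read 11.74, 11.67, 11.68, 12.00 and 11.89 in Tat+/Sal and 11.91, 12.00, 11.94, 11.82 and 11.99 in Tat+/Meth. The values within each group were close together, the Tat-/Meth arrays stood below all others, and the remaining groups overlapped. Lrp5 fell by 1.28 (SE 0.08, adjusted p = 7.86e-10), the smallest adjusted p among the members. Lrp6, the related co-receptor, averaged 11.70 ± 0.17 in Tat-/Sal and 11.77 ± 0.21 in Tat-/Meth (change 0.07 ± 0.17, adjusted p = 0.754), with group ranges that overlapped.

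Wnt16, a ligand known from bone and blood stem cells, read 6.65, 6.32, 6.77, 6.73 and 7.90 in Tat-/Sal and 5.07, 6.52, 4.86, 5.08 and 5.60 in Tat-/Meth. The Tat+/Sal arrays read 6.69, 6.38, 6.73, 6.40 and 6.19 and the Tat+/Meth arrays 7.23, 6.74, 6.69, 6.55 and 6.48. Replicate 2 of Tat-/Meth lay within the Tat-/Sal values and the other 4 arrays of the group lay below them. Wnt16 was well above background on 2 of the 5 Tat-/Meth arrays and on all 15 others, so its fall of 1.45 (SE 0.29, adjusted p = 0.000434) rests partly on signals near background, and with normexp background correction the change was -0.49 (adjusted p = 0.0297). Wnt5b, a ligand that mostly acts without beta-catenin, was the fourth member that fell, by 0.33 (SE 0.10, adjusted p = 0.00851), from 8.68 to 9.06 in Tat-/Sal to 8.29 to 8.65 in Tat-/Meth, and these ranges did not meet; its call was lost with scaling to the median and with normexp background correction.

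Wnt3, a beta-catenin ligand that guides axons and that astrocytes of the hippocampus release, is a member named in the gene tables printed in the study. It read 7.61, 7.01, 7.92, 6.70 and 7.30 in Tat-/Sal, 8.57, 8.10, 8.04, 8.36 and 8.11 in Tat-/Meth, 7.24, 6.96, 7.55, 7.18 and 6.92 in Tat+/Sal and 7.03, 7.38, 6.74, 7.23 and 7.32 in Tat+/Meth. Every Tat-/Meth array was above every other array. The Tat-/Sal arrays were the most spread of the 4 groups, with an SD of 0.48 against 0.22 in Tat-/Meth. The change was 0.93 ± 0.19 (adjusted p = 0.000629), and it kept its sign and its call under all 12 other settings of the processing and with any 1 array left out, between 0.50 and 1.08. Wnt10a, known from teeth, hair and sweat glands, rose by 0.42 (SE 0.09, adjusted p = 0.00109) from 8.44 to 8.59 to 8.79 to 8.97, ranges that did not meet, although without scaling its change was -0.001.

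**Figure D2:**
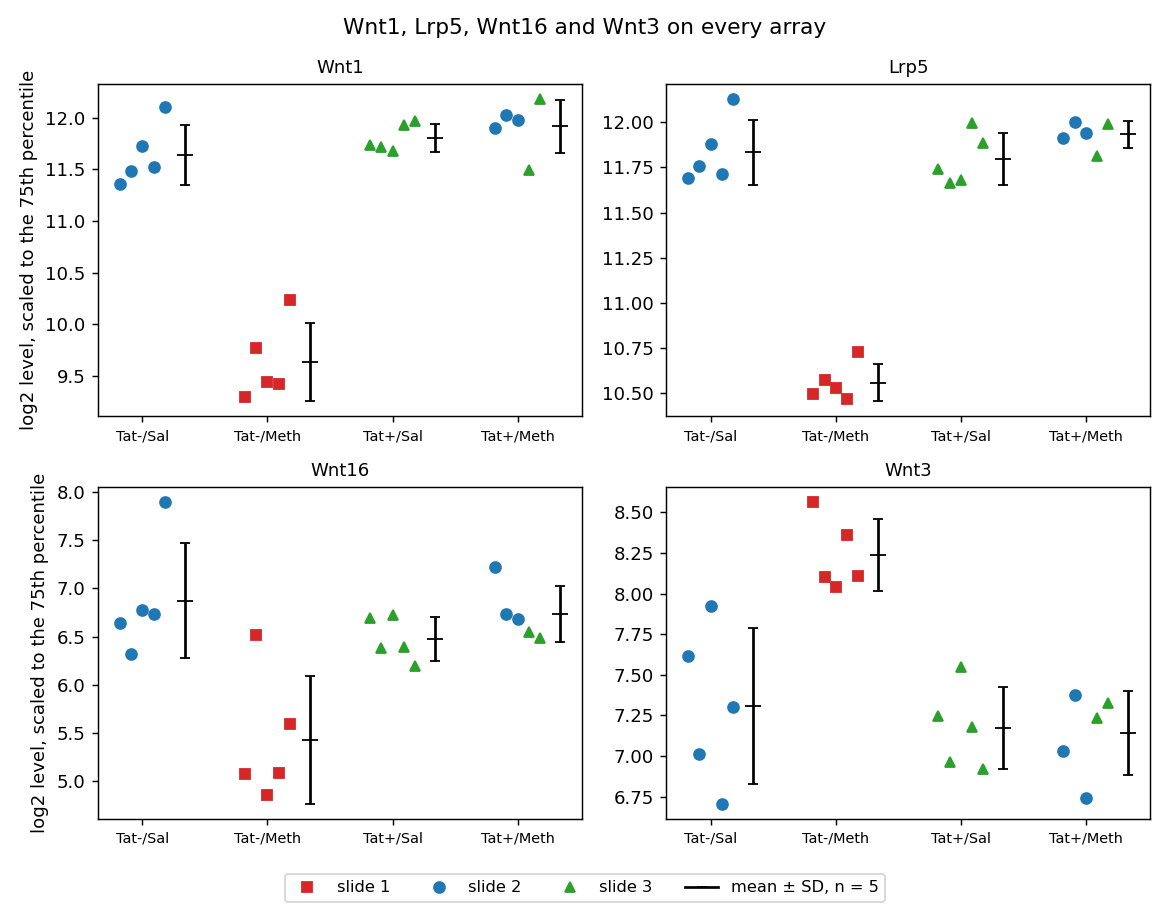
Log2 level (y axis) of Wnt1, Lrp5, Wnt16 and Wnt3 in the 4 groups (x axis); each point is 1 array, its colour and shape give the slide, and bars are the mean ± SD of 5 arrays. The 5 Tat-/Meth arrays, all on slide 1, lie apart from the others for Wnt1, Lrp5 and Wnt3, and 1 of the 5 Wnt16 values lies among the Tat-/Sal values.

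The other 9 tested ligands did not pass the test in this comparison. Wnt7a and Wnt7b, the ligands of the blood-brain barrier, changed by -0.15 ± 0.15 and 0.12 ± 0.11. Wnt8b, a signal of the embryonic forebrain, had the largest of these changes upward, 0.61 ± 0.33 with an adjusted p of 0.131, followed by Wnt2 with 0.51 ± 0.34 (adjusted p = 0.211). Both groups overlapped for each of them. Wnt10b, whose gene lies next to that of Wnt1 in the order of protein-coding genes of GRCm38.p6, changed by -0.38 ± 0.17 (adjusted p = 0.0696). Wnt9b, described above, is the gene next to Wnt3 in that order. Wnt4, Wnt5a, Wnt9a and Wnt11 lay between -0.23 and 0.04.

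Upstream sequences of the 3 ligands with the largest changes are shown to give the regions next to their start sites; Lrp5 had no entry in the promoter table used. They are the 250 bases before the RefSeq transcript start in GRCm38.p6, 5′ to 3′ on the plus strand: chr15:98789607-98789856 for Wnt1, chr6:22287977-22288226 for Wnt16 and chr11:103773925-103774174 for Wnt3. Capitals mark GC boxes (GGGCGG on either strand). No TATAAA was found on either strand in these windows, nor the core of TCF/LEF sites, which is CTTTGA, nor the AP-1 motif, written TGACTCA.
Wnt1: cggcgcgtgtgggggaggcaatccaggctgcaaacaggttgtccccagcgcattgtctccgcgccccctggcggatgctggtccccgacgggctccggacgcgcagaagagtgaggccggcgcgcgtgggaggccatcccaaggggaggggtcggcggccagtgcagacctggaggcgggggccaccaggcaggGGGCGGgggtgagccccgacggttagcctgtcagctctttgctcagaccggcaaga
Wnt16: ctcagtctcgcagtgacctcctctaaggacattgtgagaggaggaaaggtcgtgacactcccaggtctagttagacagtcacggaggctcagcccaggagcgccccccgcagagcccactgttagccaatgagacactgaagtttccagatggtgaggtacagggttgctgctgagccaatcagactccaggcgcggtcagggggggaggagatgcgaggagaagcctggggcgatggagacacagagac
Wnt3: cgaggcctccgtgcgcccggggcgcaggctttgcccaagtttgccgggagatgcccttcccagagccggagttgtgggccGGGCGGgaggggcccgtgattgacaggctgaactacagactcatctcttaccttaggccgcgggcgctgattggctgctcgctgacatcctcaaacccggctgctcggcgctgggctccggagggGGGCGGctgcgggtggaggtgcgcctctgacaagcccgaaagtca
Wnt3 held 2 GC boxes and Wnt1 held 1, while the Wnt16 window held 0 and had the lowest GC content, 59.2% against 71.6% for Wnt1 and 68.0% for Wnt3. Over the 30 windows found for 27 members, 73.3% held a GC box, 16.7% TATAAA, 16.7% CTTTGA and 3.33% TGACTCA. Over the 32851 windows of all genes these shares were 32.7%, 12.4%, 13.8% and 4.46%. The median GC content was 67.4% in the members' windows and 52.4% in all windows.

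Of the 10 Frizzled receptors 5 were called higher and 0 lower in Tat-/Meth against Tat-/Sal, with a median change of 0.29 that turned to -0.13 without scaling, where 0 were higher and 2 lower. Beside them stand 35% higher and 15.3% lower of all genes, or 0.827% and 47.2% without scaling, and 1 of the 5 is Fzd7, whose probes disagree as described below. Fzd1, Fzd2 and Fzd7 form 1 branch of the receptor tree. Fzd1 averaged 9.30 ± 0.06 in Tat-/Sal and 9.67 ± 0.18 in Tat-/Meth (change 0.36 ± 0.10, adjusted p = 0.00591), and the groups did not overlap. Fzd2 changed by 0.40 ± 0.11 (adjusted p = 0.007) and Fzd9 by 0.32 ± 0.11 (adjusted p = 0.0212), with ranges that met. The Fzd9 call was lost without replicate 1 of Tat-/Meth or replicate 3 of Tat-/Sal (adjusted p up to 0.0623). Measured from the median of all genes, the 5 called receptors lay between 0.13 and 0.26 above it, both with scaling and without. Scaling moves all genes of an array by the same amount, so this distance is about the same under both settings by construction. The match between the settings therefore does not test whether these receptors rose, and the 5 were picked for being called higher. Fzd3, Fzd5, Fzd6, Fzd8 and Fzd10 did not pass; their changes ran from -0.15 for Fzd6, a receptor of hair and skin polarity, to 0.41 for Fzd10. Fzd3, an axon guidance receptor, had the smallest spread of the tested members in these 2 groups, with an SD of 0.03 in Tat-/Sal and 0.04 in Tat-/Meth around means of 9.05 and 9.07.

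Fzd4 is the receptor of norrin, a ligand outside the Wnt family that also needs Lrp5 and the membrane protein Tspan12 and is known from vessels of the retina and brain. Fzd4 read 9.87, 9.51, 10.05, 9.63 and 9.61 in Tat-/Sal and 10.16, 10.08, 10.36, 10.05 and 9.85 in Tat-/Meth, with 3 of the 5 Tat-/Meth arrays above all Tat-/Sal arrays. Its change was 0.36 ± 0.14 (adjusted p = 0.0324), and it lost its call without any 1 of replicates 1 and 3 of Tat-/Meth and 2, 4 and 5 of Tat-/Sal, with changes of 0.30 to 0.44 and adjusted p values up to 0.0888 over all arrays left out. Ndp, which encodes norrin, changed by 0.43 ± 0.07 and Tspan12 by 0.41 ± 0.08 (adjusted p = 7.94e-05 and 0.000274). Of these 4 genes 3 were called higher and Lrp5 lower. Without scaling Fzd4 read -0.06. That setting lowers all genes of this comparison by about the same amount, so it lowers the Ndp and Tspan12 changes as much.

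Where a receptor had more than 1 probe, the probes did not always give 1 answer. The Fzd7 probe used read 7.75, 7.78, 7.97, 7.74 and 7.71 in Tat-/Sal and 8.20, 8.21, 7.79, 8.04 and 8.02 in Tat-/Meth, a change of 0.26 ± 0.10 (adjusted p = 0.0278) whose call was lost without any 1 of replicates 1 and 2 of Tat-/Meth and 1, 4 and 5 of Tat-/Sal (adjusted p up to 0.0740). The other Fzd7 probe read 8.09, 8.09, 8.37, 7.91 and 8.20 in Tat-/Sal and 6.40, 6.50, 5.91, 6.29 and 6.87 in Tat-/Meth, well above background on all 20 arrays, and changed by -1.74 ± 0.15 (adjusted p = 4.01e-08). No direction of Fzd7 mRNA can thus be given. Among the 3898 genes with more than 1 tested probe, 8.59% had probes called in opposite directions in this comparison. The other Fzd2 probe changed by -0.12 ± 0.21 (adjusted p = 0.647), and the other Lrp6 probe by 0.34 ± 0.13 (adjusted p = 0.0421) where the probe used gave 0.07. The 2 probes of Wnt4 changed by -0.20 and 0.28, neither past the test, and the other probes of Fzd5, Wnt8b and Wnt16 were too dim to test.

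**Figure D3:**
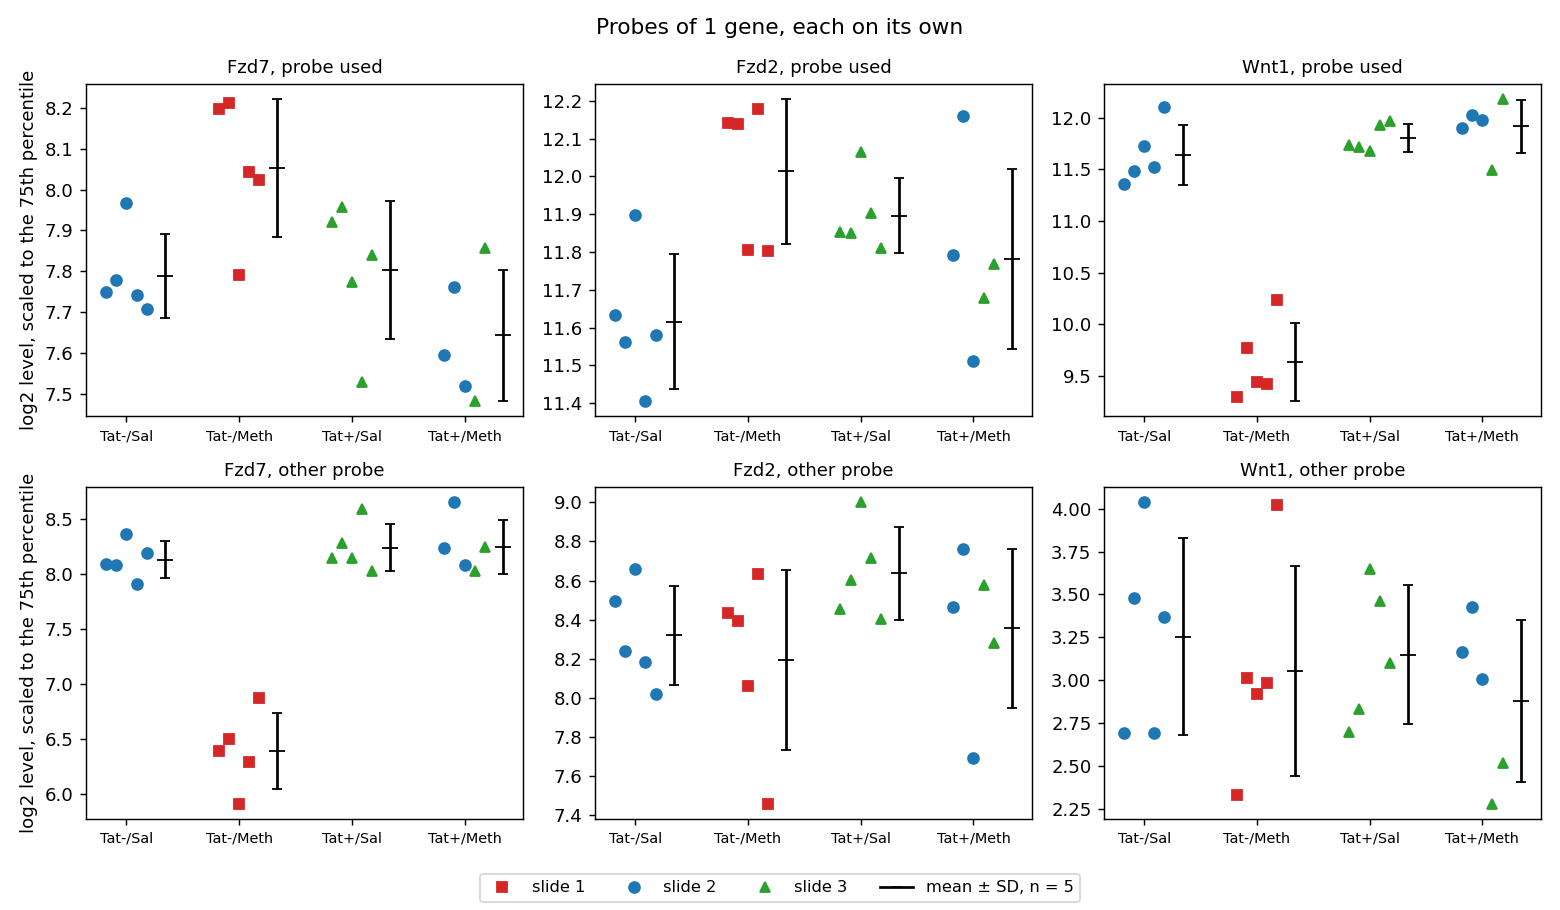
Log2 level (y axis) of Fzd7, Fzd2 and Wnt1 for the probe used (upper row) and the other probe (lower row) in the 4 groups (x axis); points are arrays marked by slide, and bars are the mean ± SD of 5 arrays. The Fzd7 probes part in opposite directions on the Tat-/Meth arrays, and the other Wnt1 probe was not well above background on any array.

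Among the antagonists, Sfrp1 was the 1 of 7 tested genes that passed. Sfrp1, a Frizzled-related protein that binds Wnt ligands, read 8.51, 8.03, 7.11, 8.18 and 7.64 in Tat-/Sal and 8.21, 8.67, 8.42, 8.28 and 8.82 in Tat-/Meth, and 2 of the 5 Tat-/Meth arrays were above every Tat-/Sal array. It rose by 0.59 (SE 0.21, adjusted p = 0.0248). The call was lost without replicate 2 or 5 of Tat-/Meth or 3 or 5 of Tat-/Sal (changes of 0.39 to 0.74 over all arrays left out, adjusted p up to 0.0785). It was also lost when the 2 groups were fitted alone, in the methods' t-test and without scaling, where the change was 0.17 (adjusted p = 0.594). Sfrp2, a close relative, was the most variable tested antagonist, from 4.95 to 6.73 in Tat-/Sal and 6.44 to 7.94 in Tat-/Meth, and its change of 0.77 ± 0.39 did not pass (adjusted p = 0.109). Frzb changed by -0.26 ± 0.15, Wif1 by 0.19 ± 0.35, Sfrp4 by 0.21 ± 0.16 and Sfrp5 by 0.22 ± 0.24, none past the test. Dkk3, a Dickkopf relative that differs from the others in not acting on Lrp5 and Lrp6, was the 1 Dickkopf gene bright enough to test and averaged 14.36 ± 0.20 and 14.40 ± 0.11 in the 2 groups.

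With Tat present, the same Meth schedule (Tat+/Meth vs Tat+/Sal) gave 0 members past the test out of 33, and 0% of all genes. In limma 5 of the 33 members and 1838 of all 15102 genes had an unadjusted p under 0.05. The methods' t-test also gave 5 members, and 0 after adjustment. The 5 were Sfrp2, Wnt2, Sfrp5, Dkk3 and Sfrp1. Sfrp2 read 5.98, 6.91, 4.76, 5.79 and 5.80 in Tat+/Sal and 6.34, 7.20, 6.91, 7.28 and 7.65 in Tat+/Meth, a difference of 1.23 ± 0.39 with an adjusted p of 0.242, the smallest among the members. Sfrp5 read 9.62, 9.61, 9.60, 9.88 and 9.54 in Tat+/Sal and 8.55, 9.53, 9.37, 8.82 and 9.01 in Tat+/Meth, so that every Tat+/Meth array was below every Tat+/Sal array, yet the adjusted p was 0.335. Wnt1, Lrp5, Wnt16 and Wnt3 differed by 0.11, 0.14, 0.26 and -0.03 in this comparison, each with overlapping groups. Within slide 3, which holds 2 Tat+/Meth arrays beside the Tat+/Sal arrays, 0 members passed and 7 had an unadjusted p under 0.05. All genes were not counted at that unadjusted limit within the slide.

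**Figure D4:**
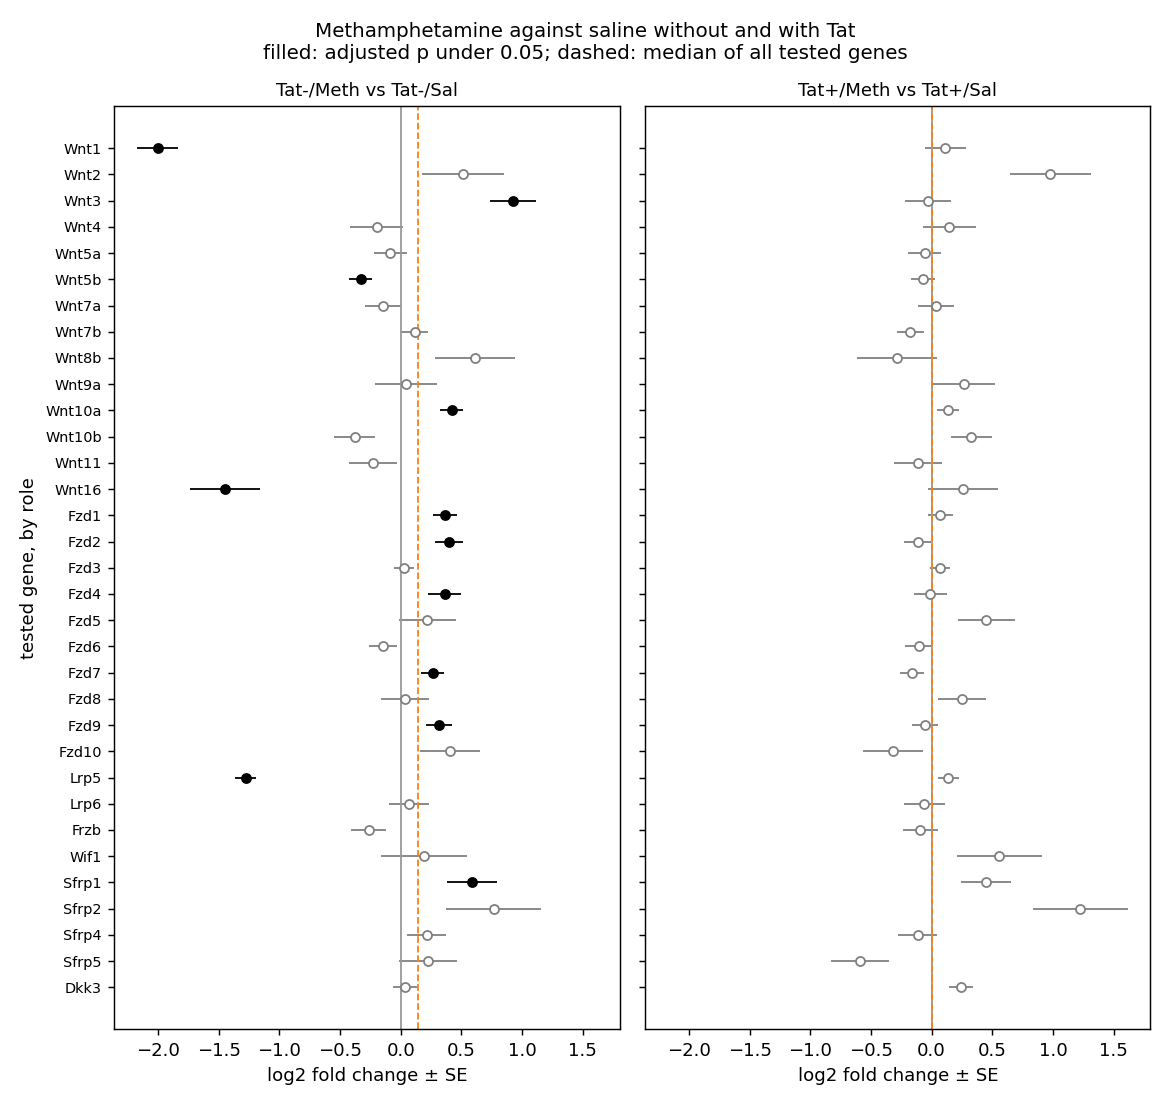
Log2 fold change ± SE (x axis) of the 33 tested genes (y axis, by role) for Meth against saline in Tat- mice (left) and in Tat+ mice (right); filled points have an adjusted p under 0.05 and the dashed line is the median of all tested genes. On the left 12 genes are filled, from Wnt1 at -2.002 to Wnt3 at 0.93, and on the right 0; without scaling of the arrays, the called Frizzled receptors and Wnt10a on the left lie between -0.16 and -0.001.

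Whether the response to Meth differed between Tat+ and Tat- mice was tested as the interaction, the Meth change in Tat+ mice minus that in Tat- mice. It passed for 7 of the 33 members. Positive values, a Meth change further up in Tat+ mice, were found for Wnt1 (2.11 ± 0.24, adjusted p = 1.97e-06), Wnt16 (1.71 ± 0.41, adjusted p = 0.00322), Lrp5 (1.42 ± 0.12, adjusted p = 5.08e-08) and Wnt10b (0.71 ± 0.24, adjusted p = 0.0267), and the Wnt10b call was lost without replicate 3 of Tat-/Meth or 5 of Tat-/Sal (adjusted p up to 0.0524). Wnt10b passed in neither comparison of Meth with saline. Negative values were found for Wnt3 (-0.95 ± 0.27, adjusted p = 0.0104), Fzd2 (-0.51 ± 0.16) and Fzd7 (-0.43 ± 0.14), of which Fzd7 turned positive without scaling and by its other probe. The Fzd2 call was lost with scaling to the median, with either other probe rule and without scaling, where the value was -0.03 (adjusted p = 0.917). Of all genes 12.4% were positive and 23.6% negative, and 7.44% passed with more than 2-fold; 3 members did so, Wnt1, Wnt16 and Lrp5. The split of the members was 3 positive and 6 negative after quantile normalization, where 11.8% and 26% of all genes were, and 11 and 0 without scaling, where 39.1% and 0.304% were. The Wnt3 call was lost without scaling and the Wnt16 call with normexp background correction. All 7 values use the Tat-/Meth arrays of slide 1.

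Between the 2 Meth groups (Tat+/Meth vs Tat-/Meth), a comparison of Tat+ with Tat- among drug-treated mice that is also one of slides, 4 members were higher where 16% of all genes were, and 8 lower where 38.5% of all genes were. This comparison shares its 5 Tat-/Meth arrays with the one above, so the changes below are not a second measurement of the same shift. Wnt1 was higher by 2.28 ± 0.17 (adjusted p = 3.41e-09), Lrp5 by 1.38 ± 0.08 (adjusted p = 2.49e-10) and Wnt16 by 1.31 ± 0.29 (adjusted p = 0.000897). Wnt3 was lower by 1.09 on the log2 scale, or 2.13-fold (change -1.09 ± 0.19, adjusted p = 0.000112). These were the 4 members past 2-fold, where 7.22% of all genes were. Wnt8b read 8.66, 8.81, 8.27, 7.91 and 7.68 in Tat-/Meth and 7.42, 7.94, 6.89, 6.96 and 7.47 in Tat+/Meth, a difference of -0.93 ± 0.33 (adjusted p = 0.0232) whose ranges met and whose call was lost without replicate 1 or 2 of Tat-/Meth or replicate 3 or 4 of Tat+/Meth (adjusted p up to 0.0630).

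The remaining members that passed between the Meth groups changed less. Fzd4 (-0.48 ± 0.14), Fzd9 (-0.42 ± 0.11), Fzd7 (-0.41 ± 0.10) and Fzd1 (-0.29 ± 0.10) were lower in Tat+/Meth with scaling, while without it 0 Frizzled receptors were lower and 2 higher, and Fzd1 turned to 0.05. The other Fzd7 probe was higher by 1.86 here (adjusted p = 1.53e-08), so Fzd7 has no settled direction in this comparison either. The Fzd1 call was also lost without replicate 4 of either group (adjusted p up to 0.0687). Wnt10a was lower by 0.48 (SE 0.09), with 5 of 5 Tat+/Meth arrays below every Tat-/Meth array, but without scaling its change was -0.15 (adjusted p = 0.441). Sfrp4 (-0.40 ± 0.16, adjusted p = 0.043) and Wnt10b (0.42 ± 0.17, adjusted p = 0.0425) passed narrowly. The Sfrp4 call was lost without replicate 1, 2 or 5 of Tat-/Meth, 4 of Tat-/Sal or 1, 2, 3 or 5 of Tat+/Meth (adjusted p up to 0.139), and the Wnt10b call without replicate 3, 4 or 5 of Tat-/Meth or 1, 2, 3 or 4 of Tat+/Meth (adjusted p up to 0.124). In members per direction, scaling to the median gave 3 higher and 10 lower, where 9.5% and 29.8% of all genes were, and no scaling 12 higher and 1 lower, where 35% and 2.14% were.

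Tat without the repeated Meth injections (Tat+/Sal vs Tat-/Sal) gave 0 members past the test, where 1.42% of all genes passed. In limma 4 of 33 members and 3094 of all 15102 genes had an unadjusted p under 0.05. By the methods' t-test 1 member did. These 2 groups lie on slides 3 and 2. No array of slide 1 enters the difference itself, but the Tat-/Meth arrays share in the estimate of spread. The 214 genes behind that 1.42% depended on single arrays: they were 0 without replicate 1 of Tat-/Sal or 5 of Tat+/Sal, 1 without replicate 2 and 4 without replicate 4 of Tat-/Sal, 63 to 118 without replicate 3 or 4 of Tat+/Sal or of Tat-/Meth or 2 of Tat+/Meth, and 338 to 547 without replicate 1 or 2 of Tat+/Sal or 3 of Tat-/Sal. With slide as a fixed block they were 0 and as a random block 2326. The 15 arrays of slides 2 and 3 alone gave 54 genes, the 2 groups alone 10 and the methods' t-test 11. Wnt9a, a ligand of joint formation, had the smallest adjusted p of the tested members, 0.113. It read 7.61, 7.21, 6.89, 7.69 and 8.81 in Tat-/Sal and 7.32, 7.05, 6.28, 6.87 and 6.91 in Tat+/Sal, and replicate 5 of Tat-/Sal was the highest of all 20. Its difference of -0.76 ± 0.26 passed without replicate 3 of Tat-/Sal or with slide as a random block, and under no other setting run. Dkk3, Wnt10a and Fzd2 differed by -0.23 ± 0.10, -0.20 ± 0.09 and 0.28 ± 0.11, with adjusted p values of 0.2, 0.236 and 0.172.

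Tat with repeated Meth against neither of these (Tat+/Meth vs Tat-/Sal) also gave 0 of 33 members and 0% of all genes. In limma 2 members and 1177 of all 15102 genes had an unadjusted p under 0.05. By the methods' t-test 0 members did. Sfrp2 differed by 0.88 ± 0.39 and Sfrp1 by 0.45 ± 0.21, both with an adjusted p of 0.64. Wnt1, Lrp5, Wnt16 and Wnt3 differed by 0.28, 0.10, -0.14 and -0.17, with overlapping ranges. On slide 2, where 3 Tat+/Meth arrays lie beside the 5 Tat-/Sal arrays, 0 members passed and 0 had an unadjusted p under 0.05. Leaving the Tat-/Meth arrays out of the fit kept the count of the 3 comparisons outside slide 1 at 0, a check chosen after seeing the data.

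Beyond ligands and receptors, 69 other genes of the pathway were looked up and 65 tested. In Tat-/Meth against Tat-/Sal 28 were called higher (43.1%) and 9 lower (13.8%), beside 35% and 15.3% of all genes, with a median change of 0.21 against 0.14. These counts are with scaling. Without it 0.827% of all genes were higher and 47.2% lower, and the median of all genes was -0.29. That setting lowers all changes of this comparison about alike, the rises given below included, and the 65 genes were not counted under it. Of the 3 secretion genes, Notum, an enzyme that strips the lipid from Wnt ligands and is itself a target of the pathway, fell the most of all 65: it read 15.95, 16.08, 16.18, 15.95 and 16.32 in Tat-/Sal and 11.80, 12.65, 11.66, 11.97 and 12.13 in Tat-/Meth, a change of -4.06 ± 0.17 (adjusted p = 2.64e-12), and 16.06 to 16.87 in Tat+/Sal and 16.30 to 16.53 in Tat+/Meth. No Tat-/Meth array came near the others. Porcn and Wls, which load and carry the ligands, changed by -0.10 and 0.17 and did not pass.

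Beside the counts per list below, 35% of all genes were higher and 15.3% lower in Tat-/Meth against Tat-/Sal with scaling. The median changes of the planar polarity, nuclear and cytoplasmic lists were 0.142, 0.137 and 0.18, close to the 0.14 of all genes. Of the 9 planar polarity genes 4 were higher and 2 lower. Vangl2, a core protein of that branch, changed by -2.62 ± 0.34 (adjusted p = 5.07e-06) and by -0.84 ± 0.20 with its other probe, so both probes were lower, while Celsr1 rose by 0.41 and Daam2 by 0.38. Of the 13 nuclear genes 4 were higher and 4 lower. Tcf7l2, a TCF factor that is also a marker of thalamus, changed by -1.61 ± 0.09 (adjusted p = 4.71e-11), whereas another of its probes changed by 0.52 ± 0.14 (adjusted p = 0.00602). The corepressor Tle2 changed by -0.80 ± 0.08, and by 0.08 ± 0.10 with its other probe. Of the 21 cytoplasmic genes 9 were higher, led by the tankyrase Tnks (0.74 ± 0.25) and the kinase Csnk1a1 (0.50 ± 0.06), and 2 lower, Axin2 (-0.46 ± 0.09) and Nkd2 (-0.44 ± 0.09). The other Csnk1a1 probe changed by -0.24 ± 0.16 and did not pass. The other Axin2 probe changed by 1.48 ± 0.43 (adjusted p = 0.0078) and was well above background on 4 Tat-/Meth and 2 Tat-/Sal arrays, so no direction of Axin2 can be given. Ctnnb1, which encodes beta-catenin, changed by 0.10 ± 0.05 and did not pass.

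Of the 16 tested co-receptors and turnover factors 8 were higher and 0 lower with scaling, where 35% and 15.3% of all genes were. The 10 genes known as targets of beta-catenin had 5 called higher and 3 lower, with Sp5 at 0.72, Ccnd1 at 0.55, Notum at -4.06 and Axin2, whose probes disagree, at -0.46. In the comparison of the Meth groups 9 of the 65 were higher and 26 lower (13.8% and 40.0%, beside 16% and 38.5% of all genes), and in the interaction 7 were positive and 12 negative (10.8% and 18.5%, beside 12.4% and 23.6%). In the 3 comparisons without Tat-/Meth the smallest adjusted p among the 65 was 0.0687.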

How the data were processed

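RNA of 20 mouse brain samples had been hybridised by the authors to 1-colour Agilent arrays and read with Agilent Feature Extraction 10.7.3.1, and the deposited values are spot intensity signals that this software had corrected for background. The members and gene lists were chosen with earlier results of these data known. Non-uniform and population outlier spots (4278 over all arrays) were left out, log2 values of repeated spots were averaged per probe, and arrays were aligned at the 75th percentile (largest difference between arrays 0.70 log2 units). Symbols came from the RefSeq accession of each probe, which named 27656 of 55681 probes, the probe with the highest mean over the 20 arrays was taken for a gene, and a gene was tested if at least 1 group mean reached 6. Probes with values on under 3 arrays of any group were left out.

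Groups were compared with limma 3.58.1 (R 4.3.3) in 1 fit of all 4 groups, with Benjamini-Hochberg adjustment over 15102 genes and a limit of 0.05; the fit was tested on simulated data. Named with full values were Wnt3, members past 2-fold, the 3 largest called changes per comparison and direction that were well above background on at least 4 of 5 arrays, and all members too dim to test; pathway genes were named by the 2 largest called changes per direction and list, beside genes tied to a member. The other settings were quantile normalization, scaling to the median, no scaling, normexp on median signals with an offset of 50, the intensity values of the authors' series matrix, other filters and probe rules, slide or replicate number as a block, single slides, the 2 groups alone, the methods' t-test, stricter limits and each array left out. The number of arrays limits the precision. Tables and figures were made with Python 3.11.15, numpy 2.4.6, pandas 2.3.3 and matplotlib 3.10.9.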

Additional observations from a re-analysis of the deposited data

Results flagged for a closer look

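In 3 of the 60 groups of 5 arrays searched (15 called members in 4 groups), 1 array stood apart from the other 4, and chance gives about 1 in 20. Fzd7 read 7.97 on replicate 3 of Tat-/Sal, where the other 4 arrays read 7.71 to 7.78. Wnt10a read 8.79 on replicate 5 of Tat-/Meth against 8.95 to 8.97 on the others, still above every Tat-/Sal array. Wnt16 read 7.90 on replicate 5 of Tat-/Sal against 6.32 to 6.77 on the others, and the same array gave the highest Tat-/Sal values of Wnt1, Lrp5 and Wnt9a.

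The response to Meth differed between Tat+ and Tat- mice for 7 members in limma's test of the difference. The Meth change in Tat+ mice exceeded that in Tat- mice by 2.11 for Wnt1, 1.71 for Wnt16, 1.42 for Lrp5 and 0.71 for Wnt10b on the log2 scale. It was below that in Tat- mice for Wnt3, with a difference of -0.95, for Fzd2 with -0.51 and for Fzd7 with -0.43. Each of these differences holds the slide 1 arrays on 1 side, so slide and interaction cannot be told apart.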

How the results depend on the processing

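The 31 called changes of members were computed under up to 36 settings, the reported one included; 22 kept their sign throughout and 9 did not, and 10 stayed past the limit of 0.05 under all settings other than the stricter limits: Wnt1 and Lrp5 in the 3 comparisons with calls, and Wnt3 and Wnt16 in those of Tat-/Meth with Tat-/Sal and with Tat+/Meth. The Wnt1 changes in the 3 comparisons were smaller with the mean over probes (-1.10, 1.05 and 1.02), and those of Wnt16 with normexp (-0.49, 0.44 and 0.62). In the interaction the Wnt16 call was lost with normexp, those of Fzd2 and Fzd7 were lost or turned with scaling to the median, without scaling, with the mean over probes and by the dimmer probe, the Wnt3 call was lost without scaling and the Wnt10b call with quantile normalization, scaling to the median, normexp and the series matrix values. The number of members called in Tat-/Meth vs Tat-/Sal was 12, and 7 with scaling to the median, 3 past 2-fold and 1 at an adjusted p under 0.01 past 3-fold; with 1 array left out it was 10 to 12. In Tat+/Meth vs Tat-/Meth it was 12, with 4 and 1 at those stricter limits, 18 with slide as a random block and 9 to 15 with 1 array left out. In the interaction it was 7, with 11 without scaling, 3 and 2 at the stricter limits and 6 to 9 with 1 array left out. In Tat+/Sal vs Tat-/Sal it was 0 except for 1 with slide as a random block, and 0 to 1 with 1 array left out. Calls over all 15102 genes moved as well. In Tat-/Meth vs Tat-/Sal 5281 were higher and 2307 lower, and 2857 and 1392 of 15121 with scaling to the median. In Tat+/Meth vs Tat-/Meth the counts were 2409 and 5811, and 2619 and 6379 with slide as a random block. In the interaction they were 1879 and 3558, and 5907 and 46 of 15121 without scaling. Wnt3 at 0.93 in Tat-/Meth vs Tat-/Sal was under both fold limits. Without scaling, signs turned in Tat-/Meth vs Tat-/Sal for Fzd1 (-0.057), Fzd2 (-0.024), Fzd4 (-0.058), Fzd7 (-0.16), Fzd9 (-0.11) and Wnt10a (-0.001), in Tat+/Meth vs Tat-/Meth for Fzd1 (0.049) and in the interaction for Fzd7 (0.06). With the mean over probes Fzd7 turned to -0.74, 0.72 and 0.66 in those 3 comparisons, and its dimmer probe alone, tried after seeing the data, gave -1.74, 1.86 and 1.75, while that of Fzd2 gave -0.12. Apart from what the construction of these settings shows, the cause was not tested. Across groups, 30 same-numbered pairs of arrays correlated at -0.18 to 0.36 (median 0.04), against a median of -0.01 for other pairs. Of the 20 arrays 8 correlated best with their own number. The main fit used no pairing, and whether the replicate numbers pair the arrays was not settled. A fit with the replicate block called 14, 14 and 9 members in the 3 comparisons with calls, and 0 in the others. Among them were all 12, 12 and 7 of the fit without it, and Wnt3 stayed at 0.93. Over all genes the replicate block called 5572 higher and 2368 lower, 2494 and 6003, and 1960 and 3833 in those 3 comparisons. A fixed slide block or single slides could not be fitted for comparisons with Tat-/Meth, since slide 1 holds only that group; in the others they called 0 members. Members near background, such as Wnt16 in Tat-/Meth, have imprecise changes.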
